A study of Mus musculus with 9 samples.

Results

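P-IV.I cells are mouse peritoneal dendritic cells that carry CD115, and PcDC2 cells are the type 2 dendritic cells of the same cavity that lack it. The comparison rests on 4 of the 9 libraries of the study, 2 of P-IV.I and 2 of PcDC2, chosen by their labels. Genes with an FPKM (fragments per length of transcript and size of library) of at least 1 in at least 2 of the 9 libraries were tested, 10526 of the 24532 in the table. All cells came from the peritoneal cavity of C57BL/6 mice at postnatal week 8, with no treatment or altered allele in the labels, and both groups were sorted as MHCII+ CD11c+. P-IV.I cells were CD115+ and PcDC2 cells CD115-. The other libraries hold 2 groups labelled small peritoneal macrophages, the CD11c- CD115+ SPM and the CD11c+ CD115+ P-IV.II with 2 libraries each, and 1 library of PcDC1, the type 1 dendritic cells, from the CD11c+ CD115- gate. The labels give P-IV.I and P-IV.II the same 3 antigens and do not say what parted them. The sources do not tell if a group's 2 libraries came from different mice or different sorts, so each p-value speaks only of the spread among these libraries.

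CD115 is the receptor for the cytokines CSF1 and interleukin 34 and is encoded by Csf1r. Monocytes and macrophages depend on this receptor, while conventional dendritic cells develop under the ligand of another receptor tyrosine kinase, FLT3, and carry the transcription factor ZBTB46. Type 2 conventional dendritic cells present antigen on MHC class II to CD4 T cells, and on maturing they gain CCR7, the chemokine receptor that takes them to lymph nodes. The serous cavities also hold macrophages derived from monocytes, whose RNA is rich in transcripts such as Retnla, Lyz1 and Fcrls.

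Over the 4 libraries FPKM totals were 439597 to 472533, and each library had 9681 to 9847 genes at an FPKM of 1 or more, while their read depth is not known. Pearson's r across the tested genes on the log2 scale was 0.959 between the 2 P-IV.I libraries and 0.973 between the 2 PcDC2 libraries. P-IV.I replicate 1 was as close to the PcDC2 libraries, at 0.962 and 0.965, as to its own replicate. P-IV.I replicate 2 was at 0.953 and 0.937. Genes are not independent replicates, and these values are a description.

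The CD115+ and CD115- dendritic cells differed in few genes. By limma with Benjamini-Hochberg adjustment over all tested genes at 0.05, P-IV.I exceeded PcDC2 in 63 genes (0.599%) and was lower in 14 (0.133%), so 77 (0.732%) differed. The unadjusted p was under 0.05 for 738 genes. The same fit called 1012 genes (9.61%) for P-IV.I against P-IV.II, 1157 (11.0%) for P-IV.I against SPM and 2183 (20.7%) for P-IV.II against PcDC2. These comparisons share libraries with the main one. Leaving out P-IV.I replicate 1 or 2 gave 366 or 530 genes in the first and 554 or 743 in the second, and leaving out PcDC2 replicate 1 or 2 gave 1146 or 924 in the third. The counts for P-IV.I against PcDC2 also depended on single libraries. Without P-IV.I replicate 1 there were 45 higher and 2 lower genes, without P-IV.I replicate 2 there were 17 and 1, without PcDC2 replicate 1 there were 19 and 5, and without PcDC2 replicate 2 there were 15 and 0. Of the named genes, Csf1r, Fcrls, Tgfbi, Lpl, Lyz1, Retnla, Capg, Fcgr3, Pilra, Pla2g7 and Slc11a1 passed as reported and in each of the 17 alternatives tried.

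**Figure D1:**
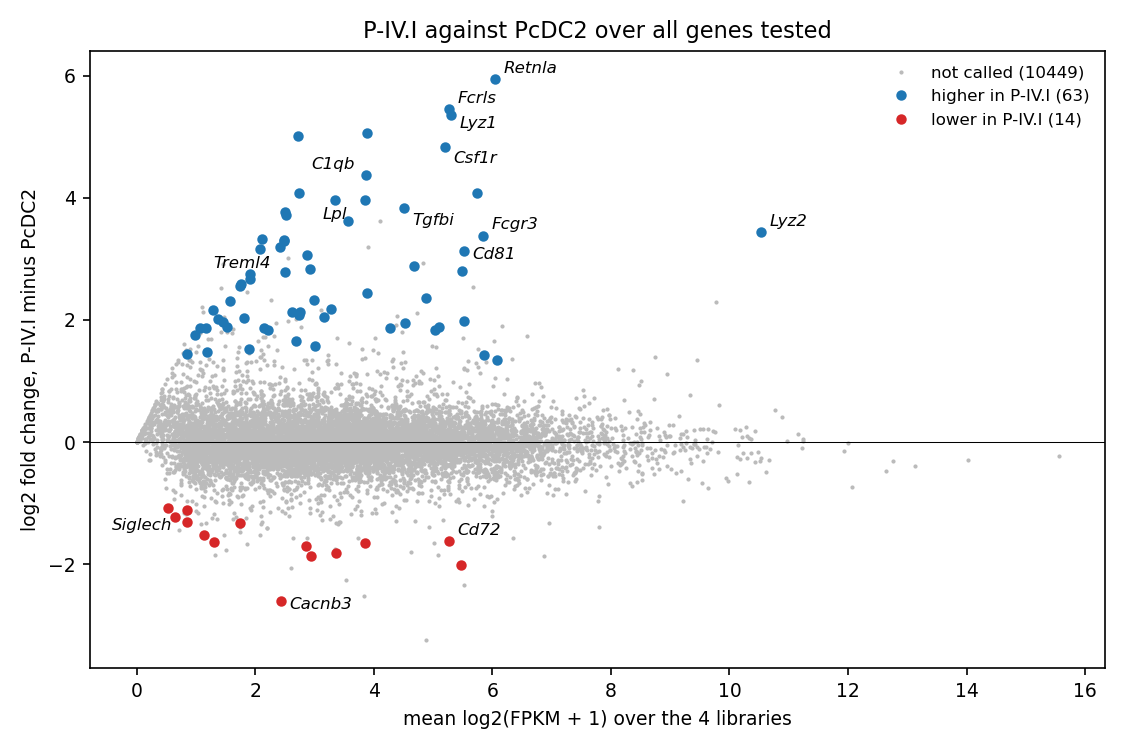
Mean log2(FPKM + 1) over the 4 libraries (x) against the log2 fold change of P-IV.I minus PcDC2 (y) for the 10526 genes tested. Each point is 1 gene: blue points are the 63 genes higher in P-IV.I, red points the 14 lower ones and grey points the genes that did not pass.

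The sorted antigen comes first because it checks the labels. Csf1r (Entrez 12978, chromosome 18, 61105572 to 61131139 in mm10) had an FPKM of 156.7 and 245.6 in the P-IV.I libraries and of 5.08 and 6.86 in the PcDC2 libraries. It was highest in SPM at 476.2 and 739.8, stood at 293.1 and 326.7 in P-IV.II, and was listed at 0 in PcDC1. The P-IV.I libraries lay above both PcDC2 libraries and below both P-IV.II libraries, with a log2 fold change against PcDC2 of 4.84 ± 0.32 (SE, limma adjusted p = 0.000659) and against P-IV.II of -0.65 ± 0.32 (adjusted p = 0.229). Since the sort used CD115, the first of these differences follows from the gate. Itgax, which encodes CD11c, had an FPKM of 104.9 and 94.8 in P-IV.I and of 91.0 and 77.7 in PcDC2, a log2 difference of 0.24 ± 0.25 (adjusted p = 1) with a 95% interval of -0.33 to 0.82. Transcripts of the MHC class II genes used as the third antigen, H2-Aa, H2-Ab1 and H2-Eb1, did not pass either, at -0.39 ± 0.41, -0.29 ± 0.36 and -0.47 ± 0.46.

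Of 11 tested genes of the CSF1 and FLT3 growth factor axis, Csf1r was the only one that passed. Flt3, the receptor that drives dendritic cell development, had an FPKM of 101.8 and 118.4 in P-IV.I and of 173.0 and 140.7 in PcDC2. It was under 3.1 in every SPM and P-IV.II library. The log2 difference of Flt3 between P-IV.I and PcDC2 was -0.50 ± 0.31 (adjusted p = 0.987), with a 95% interval of -1.23 to 0.22. P-IV.I libraries thus held both Csf1r and Flt3 at an FPKM above 100, whereas PcDC2 libraries held Flt3 with Csf1r under 7. Kit, the stem cell factor receptor, had an FPKM of 19.04 and 23.03 in P-IV.I against 43.5 and 40.4 in PcDC2, without overlap, at -0.97 ± 0.26 (adjusted p = 0.231). The receptor chains for GM-CSF, Csf2ra and Csf2rb, did not pass, at 0.31 ± 0.35 and 0.26 ± 0.31. In sorted bulk RNA a few cells with much of a transcript and many cells with little of it cannot be told apart, so these values do not show that single cells held both receptors.

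**Figure D2:**
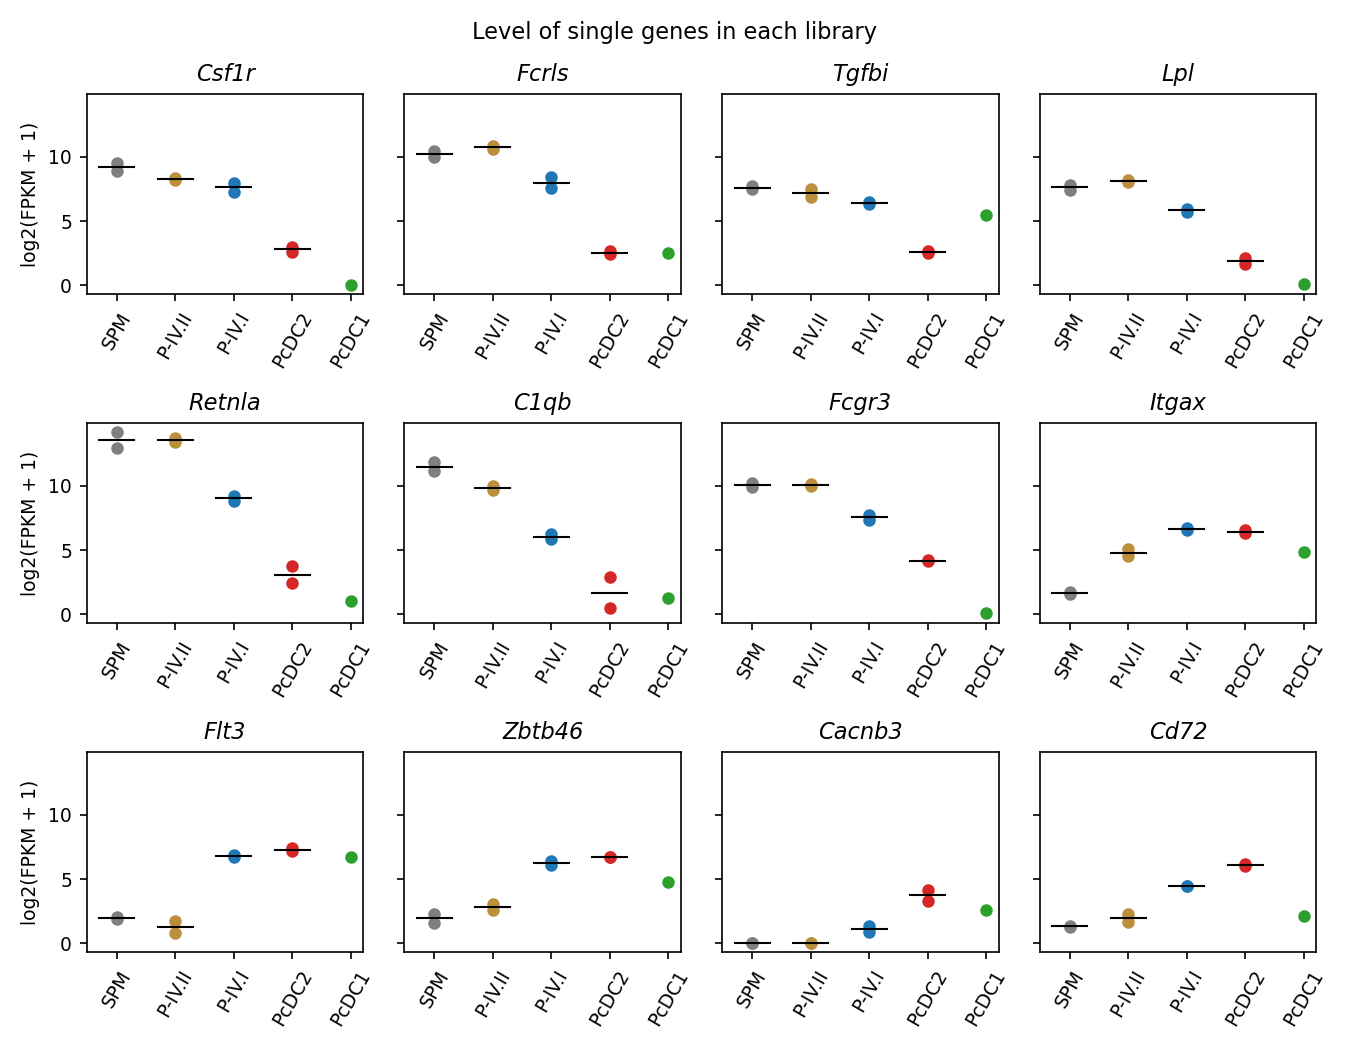
Level of 12 genes as log2(FPKM + 1) (y) in each library of the 5 groups (x), with points for single libraries and bars for group means. Csf1r, Fcrls, Tgfbi, Lpl, Retnla, C1qb and Fcgr3 lie in P-IV.I between the macrophage groups and PcDC2, Itgax, Flt3 and Zbtb46 lie in P-IV.I near PcDC2, and Cacnb3 and Cd72 are highest in PcDC2.

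The label of P-IV.I as dendritic cells was checked against cell type markers. Zbtb46, the conventional dendritic cell transcription factor, had an FPKM of 68.3 and 82.6 in P-IV.I and of 103 and 106 in PcDC2, against 2.03 to 7.25 in the macrophage libraries. Of the macrophage markers, Mertk, a receptor for dying cells, was near 0 in P-IV.I at 0.118 and 0.448, and Fcgr1, the high-affinity Fc receptor CD64, had 0.556 and 0.829. Fcgr1 had 6.73 and 2.95 in SPM but 0.576 and 0.165 in P-IV.II, so its level does not part P-IV.I from P-IV.II. Mertk was listed at 0 in both PcDC2 libraries and lay between 15.7 and 16.0 in SPM and between 5.23 and 5.73 in P-IV.II. Adgre1, which encodes F4/80, had 40.7 and 57.9 in P-IV.I and 21.1 and 23.5 in PcDC2, at 1.09 ± 0.30 (adjusted p = 0.251), and the C1q chains are described below. Gata6, the factor of large peritoneal macrophages, stayed under 0.23 in every library. The other markers chosen for these macrophages, Timd4 and Selp, were present in both dendritic cell groups. Timd4 had 12.1 and 9.54 in P-IV.I and 18.7 and 23.2 in PcDC2. It had 22.0 and 23.1 in SPM, 1.97 and 2.00 in P-IV.II and 69.4 in PcDC1. Selp had 0.941 and 3.05 in P-IV.I and 5.96 and 6.98 in PcDC2. None of the dendritic cell markers Flt3, Zbtb46 and Itgax passed between P-IV.I and PcDC2 by limma, at an unadjusted p of 0.147, 0.157 and 0.359. Both groups were sorted on CD11c, which Itgax encodes, so Itgax is no check apart from the gate.

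Type 2 dendritic cell transcripts were present in both groups. Of 24 tested members of that list none passed in either direction by limma (1 higher and 3 lower at an unadjusted p under 0.05), and the median log2 difference was -0.20 against -0.01 over all tested genes. Cd209a, a C-type lectin of type 2 dendritic cells, had an FPKM of 2224 and 1955 in P-IV.I and of 1408 and 1502 in PcDC2, at 0.52 ± 0.24 (adjusted p = 0.781). Sirpa, an inhibitory receptor that separates type 2 from type 1 cells, had 197 and 175 against 172 and 161. Mgl2, a galactose-binding lectin, lay at 696 and 753 in P-IV.I and at 328 and 339 in PcDC2 without overlap, at 1.12 ± 0.29 (adjusted p = 0.192). Irf4, a transcription factor of type 2 cells, had 28.8 and 10.7 against 17.0 and 18.6, so the groups overlapped.

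Transcripts of small cavity macrophages were among the genes highest in P-IV.I relative to PcDC2. The resident small cavity macrophage list had 4 of 15 tested members higher (26.7%, against 0.599% over all genes) and none lower, and the median log2 difference was 0.52. Retnla (Entrez 57262, chromosome 16, 48842609 to 48844461), a secreted resistin-like protein of alternatively activated macrophages, had an FPKM of 463 and 579 in P-IV.I and of 4.29 and 12.3 in PcDC2. Both P-IV.I libraries lay far above both PcDC2 libraries, and the log2 fold change of 5.95 ± 0.52 (adjusted p = 0.00236) was the highest of any called gene. Fcrls, an Fc receptor-like scavenger protein (Entrez 80891, chromosome 3, 87250736 to 87263765), had 191 and 339 against 4.46 and 5.24, at 5.45 ± 0.32 (adjusted p = 0.000659). Lyz1 (Entrez 17110, chromosome 10, 117287795 to 117292868), one of a pair of neighbouring lysozyme genes, had 209 and 301 against 5.91 and 4.53, at 5.35 ± 0.35. Lyz1 and Lyz2 are similar in sequence, so reads may have been split between them. Mrc1, the mannose receptor CD206, had 54.3 and 76.9 against 16.1 and 17.5, at 1.88 ± 0.26 (adjusted p = 0.0198). With a library left out this list kept 3 or 4 higher members, and Mrc1 was lost without P-IV.I replicate 2 (adjusted p = 0.182), PcDC2 replicate 1 (0.156) or PcDC2 replicate 2 (0.179).

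For 4 of the genes higher in P-IV.I, the 250 bases before the start of the RefSeq gene are shown (GRCm38.p6, the coordinates of mm10), to let the motifs below be seen in place. The sequences read 5′ to 3′ on the gene's own strand. Capitals mark matches on either strand to GAGGAA, a core of sites for the myeloid factor PU.1, to TTGCNNAA, a core of C/EBP sites, or to a composite of PU.1 and IRF sites. Retnla lies at chr16:48842359-48842608 on the plus strand, Lyz1 at chr10:117292869-117293118, C1qb at chr4:136886201-136886450 and Pilra at chr5:137836279-137836528, these 3 on the minus strand.
Retnla: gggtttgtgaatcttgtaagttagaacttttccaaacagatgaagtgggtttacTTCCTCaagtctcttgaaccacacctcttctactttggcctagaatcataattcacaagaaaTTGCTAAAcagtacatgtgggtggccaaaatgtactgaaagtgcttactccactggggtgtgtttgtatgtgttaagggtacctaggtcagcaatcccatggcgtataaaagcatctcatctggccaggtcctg
Lyz1: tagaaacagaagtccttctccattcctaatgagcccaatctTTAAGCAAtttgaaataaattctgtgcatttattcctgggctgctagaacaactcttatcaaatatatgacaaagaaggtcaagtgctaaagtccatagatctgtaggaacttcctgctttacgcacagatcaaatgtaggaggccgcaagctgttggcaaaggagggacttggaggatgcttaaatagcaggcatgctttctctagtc
C1qb: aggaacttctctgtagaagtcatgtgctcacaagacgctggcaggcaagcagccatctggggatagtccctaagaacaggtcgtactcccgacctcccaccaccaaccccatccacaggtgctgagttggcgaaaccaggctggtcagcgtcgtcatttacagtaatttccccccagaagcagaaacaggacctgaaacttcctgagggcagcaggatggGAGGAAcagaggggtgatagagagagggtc
Pilra: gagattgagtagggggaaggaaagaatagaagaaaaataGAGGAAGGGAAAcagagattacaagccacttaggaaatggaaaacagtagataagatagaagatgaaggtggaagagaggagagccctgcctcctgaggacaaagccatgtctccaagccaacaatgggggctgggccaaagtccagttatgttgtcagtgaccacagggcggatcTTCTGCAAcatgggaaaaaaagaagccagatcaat
In Retnla the GAGGAA match lies 196 to 191 bases before the start and the TTGCNNAA match 134 to 127 bases before it. Lyz1 has a TTGCNNAA match 209 to 202 bases before the start, and C1qb a GAGGAA match 30 to 25 bases before it. In Pilra, which encodes a paired immunoglobulin-like inhibitory receptor, a GAGGAA match at 211 to 206 bases overlaps a PU.1-IRF composite match at 209 to 200 bases. A TTGCNNAA match of Pilra lies at 35 to 28 bases. The 4 genes shown are examples that all hold a match. Of other named genes higher in P-IV.I, Tgfbi, Capg, Pla2g7 and Cd36 held no match in the 250 bases before a listed start. Fcrls and Slc11a1 held GAGGAA there, and F13a1 before a single start. Among 59 promoters of 51 genes higher in P-IV.I, 44.1% held GAGGAA, against 22.9% of 10748 promoters of tested genes and 23.3% of all 32851 promoters in the RefSeq table. TTGCNNAA was held by 28.8%, 7.73% and 9.56% of these sets. The composite was held by 1.69%, 2.03% and 2.30%, and a core of NF-kB sites by 3.39%, 1.44% and 1.41%. Of 13 promoters of 11 genes lower in P-IV.I, 23.1% held GAGGAA, 15.4% TTGCNNAA and 7.69% the composite. A match is a description of letters and not a measured binding site, and no test was made of these shares.

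The macrophage core list had 8 of 27 tested members higher (29.6%, against 0.599% over all genes) and none lower. The 8 include Csf1r, whose difference follows from the CD115 gate. The list had a median log2 difference of 0.95. In 25 of its 27 members (92.6%) both P-IV.I libraries lay above both PcDC2 libraries, against 19.0% of all tested genes. The members called included Csf1r, C1qb, Fcgr3, C1qc, Tlr8 (an endosomal sensor of RNA), Mrc1 and Dok3 (a signalling adaptor), of which Tlr8 and Dok3 were lost without each of the 4 libraries. Fcgr3, a low-affinity activating Fc receptor (Entrez 14131, chromosome 1, 171051169 to 171065915), had an FPKM of 161 and 212 in P-IV.I and of 17.4 and 16.4 in PcDC2, at 3.38 ± 0.24 (adjusted p = 0.000871). Of the macrophage transcription factors, 3 of 16 tested members were higher (18.8%, against the same 0.599%). Among them were Cebpb, a factor of myeloid differentiation, at 2.88 ± 0.38 (adjusted p = 0.0189) and Pparg, a lipid-sensing nuclear receptor, at 1.65 ± 0.27 (adjusted p = 0.0421). Maf stayed under 0.17 in all 4 libraries, and Spi1, which encodes PU.1, had an FPKM of 481 and 391 in P-IV.I and of 510 and 512 in PcDC2. With a library left out the macrophage core list had 2 to 4 higher members. Cebpb was lost without P-IV.I replicate 2 (adjusted p = 0.180), PcDC2 replicate 1 (0.103) or PcDC2 replicate 2 (0.186), and Pparg without each of the 4, at 0.0742 to 0.319.

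Complement genes included 3 higher members of 14 tested (21.4%, against 0.599% over all genes) and none lower. C1qb (Entrez 12260, chromosome 4, 136880126 to 136886200) encodes a chain of C1q, which starts the classical pathway. It had an FPKM of 57.3 and 74.2 in P-IV.I and of 0.406 and 6.34 in PcDC2, so the PcDC2 libraries differed widely between themselves while both stayed below P-IV.I. The log2 fold change was 4.36 ± 0.67 (adjusted p = 0.0339). C1qc, another chain, had 17.4 and 23.3 against 0.456 and 3.40, at 3.06 ± 0.48 (adjusted p = 0.0362). C1qa, the remaining chain, had 10.7 and 9.02 against 0.121 and 3.13 and did not pass (adjusted p = 0.220). C3, the central component, had 3.21 and 3.42 against 0.0832 and 0.291, at 1.87 ± 0.28 (adjusted p = 0.0328). Leaving out a library left 0 to 2 complement members. C1qb was lost without P-IV.I replicate 1 (adjusted p = 0.114), P-IV.I replicate 2 (0.255) or PcDC2 replicate 1 (0.0570), and C1qc without the same libraries at 0.108, 0.280 and 0.0928. C3 was lost without each of the 4, at 0.116 to 0.228.

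Among lipid efflux and storage genes, 3 of 21 tested members were higher (14.3%, against 0.599% over all genes) and none lower, with a median of 0.31. Lpl (Entrez 16956, chromosome 8, 68880555 to 68906932), lipoprotein lipase, had an FPKM of 50.6 and 61.7 in P-IV.I and of 2.12 and 3.26 in PcDC2, at 3.96 ± 0.26 (adjusted p = 0.000659). Cd36, a fatty acid and scavenger receptor, had 29.9 and 54.5 against 3.75 and 1.40, at 3.62 ± 0.45 (adjusted p = 0.0138), and Pparg is also on this list. Cd36 was lost without P-IV.I replicate 2 (adjusted p = 0.116) or PcDC2 replicate 2 (0.118). Apoe, which carries cholesterol, had 39.4 and 44.8 in P-IV.I and 2.38 and 30.5 in PcDC2, at 2.06 ± 0.88 (adjusted p = 0.689). Of the scavenger and clearance receptors, 3 of 19 were higher (15.8%, against 0.599% over all genes), namely Cd36, Mrc1 and the integrin subunit Itgb5. With a library left out 0 to 2 of them were higher, and Itgb5 was lost without each of the 4 (adjusted p = 0.0501 to 0.249). Axl, a receptor for dying cells, had 34.0 and 103 against 3.68 and 4.12, at 3.62 ± 0.71 (adjusted p = 0.0828), so its groups did not overlap but it did not pass.

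The monocyte list had 4 of 19 tested members higher (21.1%, against 0.599% over all genes) and 1 lower (5.26%, against 0.133%). Lyz2, the main myeloid lysozyme gene, had an FPKM of 4538 and 5223 in P-IV.I and of 358 and 566 in PcDC2, at 3.43 ± 0.38 (adjusted p = 0.00684). F13a1, a coagulation transglutaminase subunit, had 21.0 and 63.1 in P-IV.I, and 0.349 and a listing at 0 in PcDC2, at 5.01 ± 0.48. Fn1, fibronectin, had 53.4 and 133 against 1.04 and 2.24, at 5.06 ± 0.56. The P-IV.I libraries lay apart from each other for F13a1 and Fn1, and both were above each PcDC2 value. Ccr2, the receptor that brings monocytes out of the marrow, had 437 and 568 against 205 and 234, at 1.18 ± 0.27 (adjusted p = 0.134). Without a library the list kept 0 to 4 higher members. Lyz2 and Fn1 were lost without P-IV.I replicate 2 (adjusted p = 0.0812 and 0.0689), PcDC2 replicate 1 (0.0910 and 0.0725) or PcDC2 replicate 2 (0.0546 and 0.0556), and F13a1 without PcDC2 replicate 2 (0.0546).

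Further named genes with high fold changes were Tgfbi, an extracellular matrix adaptor induced by TGF-beta (Entrez 21810, chromosome 13, 56609586 to 56639359), at 89.7 and 80.8 against 5.45 and 4.70, and Capg, an actin filament capping protein, at 190 and 253 against 11.8 and 12.3. Their log2 fold changes were 3.83 ± 0.27 and 4.07 ± 0.24. Pla2g7, which inactivates platelet-activating factor, was at 4.08 ± 0.31, Pilra at 3.96 ± 0.25 and Slc11a1, a divalent metal transporter of phagosomes, at 3.77 ± 0.29. In each of these 5 genes both P-IV.I libraries lay above both PcDC2 libraries. Other called genes, were chosen after their values were seen. Ptgs1, which encodes cyclooxygenase 1, was at 3.32 ± 0.43, Tbxas1, thromboxane synthase, at 1.99 ± 0.21, and Hmox1, haem oxygenase 1, at 2.83 ± 0.34. The tetraspanin Cd81 was at 3.13 ± 0.28 and the protease inhibitor Timp2 at 2.44 ± 0.30. Of these 5, Hmox1 passed in none of the 4 fits that left out a library, Ptgs1, Tbxas1 and Timp2 in 1 and Cd81 in 3.

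**Figure D3:**
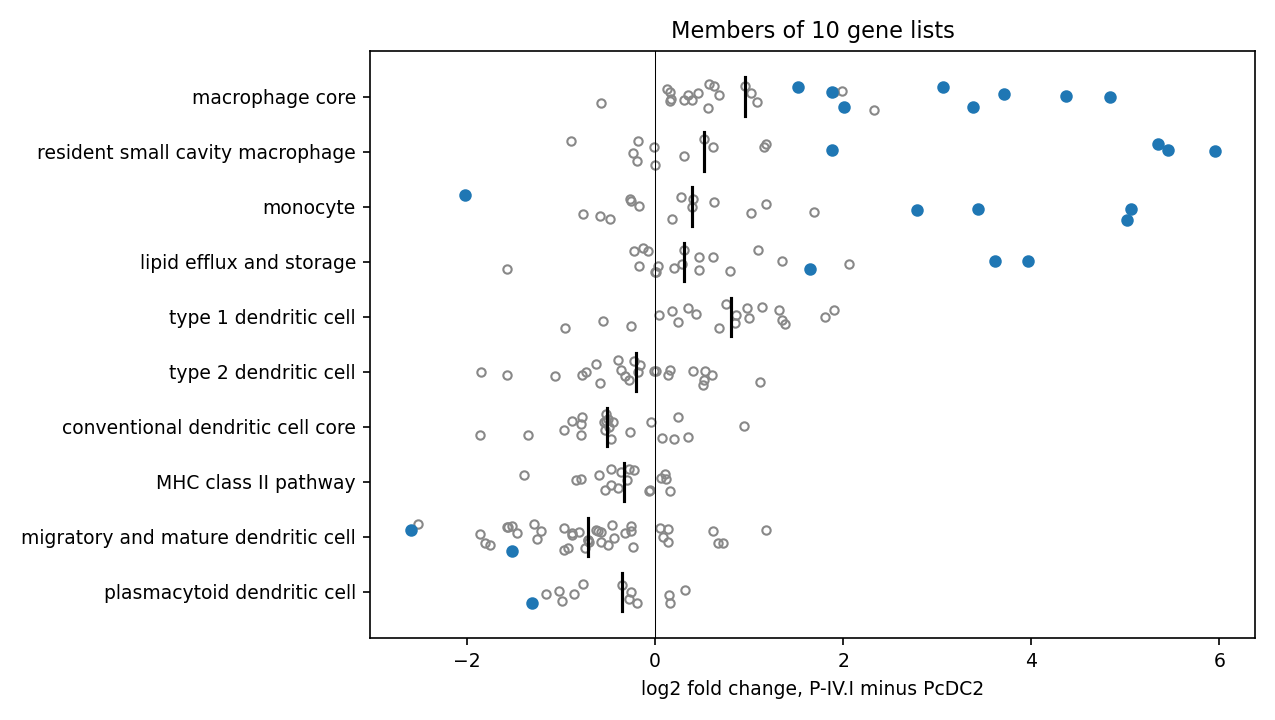
Log2 fold change of P-IV.I minus PcDC2 (x) for each tested member of 10 gene lists (y). Filled points passed the adjusted p threshold of 0.05, open points did not, and the bar is the median of the list. Filled points to the right belong to the macrophage core, resident small cavity macrophage, monocyte and lipid lists.

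The level reached in P-IV.I differed from gene to gene when set beside the macrophage groups. Of the genes called higher against PcDC2, 62 had a P-IV.II mean of at least 1 FPKM, and in these the P-IV.I mean was a median of 22.6% of the P-IV.II mean. It ran from 3.75% for Lyz1 and 4.24% for Retnla, through 15.5% for Fcrls, 19.8% for Lpl and 56.3% for Tgfbi, to 64.9% for Csf1r. It was under 10% for 5 genes, 10% to 25% for 29, 25% to 50% for 16, 50% to 100% for 8 and over 100% for 4. The 4 were C3 at 105%, the elastase Mmp12 at 179%, Itgb5 at 277% and Treml4 at 576%. Against SPM the median over 61 genes was 21.5%, from 1.29% for C1qc to 326% for Treml4. Summed over its 28 genes, the macrophage core list held 0.331% and 0.402% of all FPKM for P-IV.I against 0.175% and 0.181% for PcDC2. For P-IV.II the share was 0.843% and 0.974%, and for SPM 1.81% and 2.09%. All 28 members were above 0 in both P-IV.I libraries, Mertk among them at the near-0 values given above. P-IV.I shared its sort gate with P-IV.II, and the part that macrophages in the sort may have in these levels was not tested.

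**Figure D4:**
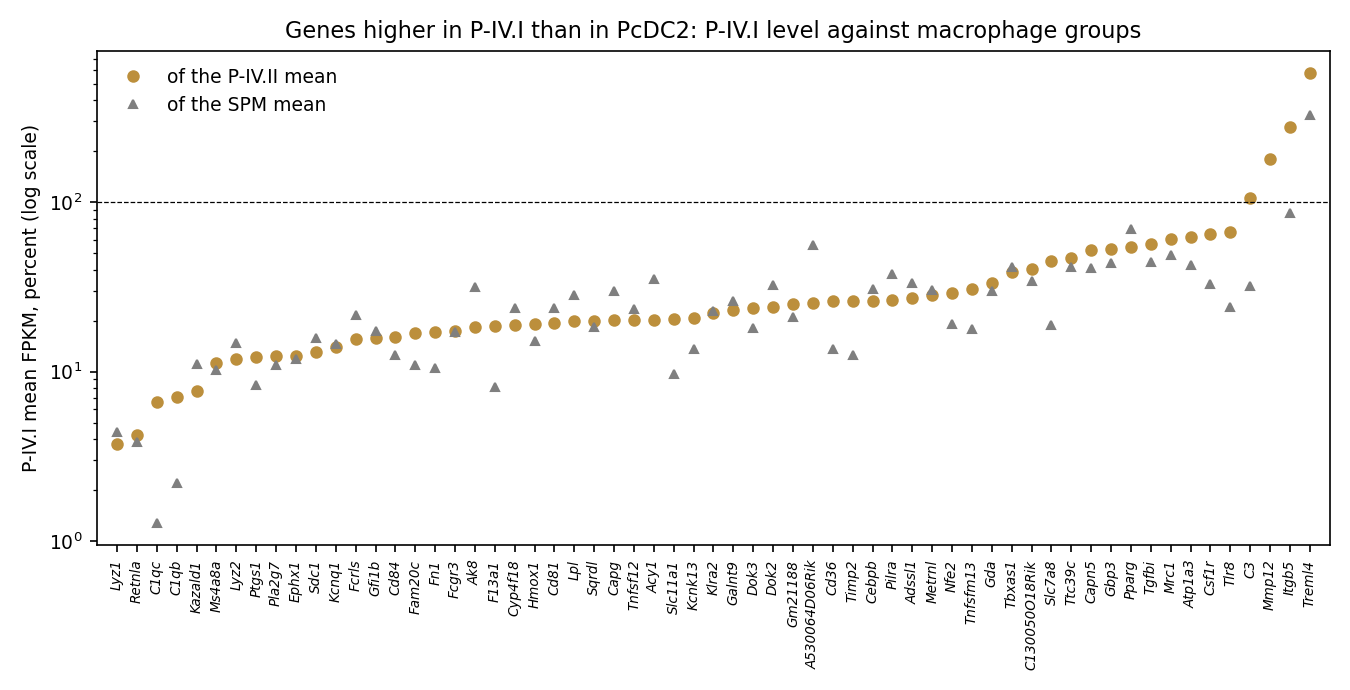
P-IV.I mean FPKM as a percentage of the P-IV.II mean (circles) and of the SPM mean (triangles), log scale (y), for 61 of the 62 genes called higher against PcDC2 whose P-IV.II mean was at least 1 FPKM (x), in rank order. Triangles are left out where the SPM mean was under 1 FPKM, the dashed line marks 100%, and most circles lie between 10% and 50%.

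Treml4 and Ttc39a were the genes higher in P-IV.I than in each of PcDC2, P-IV.II and SPM, where 0.599%, 6.51% and 6.41% of tested genes were higher. Treml4 (Entrez 224840, chromosome 17, 48264200 to 48275607), a receptor of the TREM family known from non-classical monocytes and splenic dendritic cells, had an FPKM of 14.0 and 13.6 in P-IV.I and of 1.55 and 0.811 in PcDC2. It had 1.95 and 2.85 in P-IV.II and 3.25 and 5.23 in SPM, and 106 in the single PcDC1 library. Its log2 fold change was 2.78 ± 0.30 against PcDC2 (adjusted p = 0.00663) and 2.14 ± 0.30 against P-IV.II (adjusted p = 0.00433). The call of Treml4 against PcDC2 was lost without P-IV.I replicate 2 (adjusted p = 0.0795) or PcDC2 replicate 2 (0.0794). Ttc39a had 1.65 and 2.31 in P-IV.I, 0.183 and a listing at 0 in PcDC2, and 14.8 in PcDC1, at 1.45 ± 0.21 (adjusted p = 0.0257). Outside P-IV.I, Ttc39a reached an FPKM of 1 only in the single PcDC1 library, so it passed the filter through P-IV.I. Its call was lost when any one of the 4 libraries was left out. With a library left out, Treml4 passed against all of PcDC2, P-IV.II and SPM only without PcDC2 replicate 1, and Ttc39a in no such fit.

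Type 1 dendritic cell transcripts summed to less in both groups than in PcDC1, at 753 and 908 FPKM over 23 genes in P-IV.I and 585 and 457 in PcDC2 against 9582. None of 20 tested members passed by limma (11 higher and 1 lower at an unadjusted p under 0.05), while in 13 (65.0%, against 19.0% of all tested genes) both P-IV.I libraries lay above both PcDC2 libraries, and the median was 0.80. Xcr1, the chemokine receptor that marks type 1 cells, had an FPKM of 5.75 and 9.32 in P-IV.I and of 2.44 and 0.450 in PcDC2, at 1.90 ± 0.42 (adjusted p = 0.122). Clec9a, a receptor for dead cells on type 1 cells, had 6.29 and 6.81 against 3.32 and 3.61. These levels were low beside the PcDC1 library, at 131 for Xcr1 and 68.7 for Clec9a. Abundant members included Naaa, a lysosomal acid amidase, at 246 and 249 in P-IV.I against 146 and 128 in PcDC2, and Id2, a transcriptional inhibitor, at 152 and 141 against 61.7 and 88.9. As a share of the FPKM total, the summed list was 1.48% in PcDC1. It was 0.159% and 0.207% in P-IV.I against 0.126% and 0.0975% in PcDC2, and the macrophage groups had similar shares, at 0.164% and 0.137% in SPM and 0.223% and 0.168% in P-IV.II. Naaa had 223 to 281 and Id2 152 to 660 in the macrophage libraries. The part of type 1 cells in Treml4 and Ttc39a was not tested.

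Fewer genes were lower in P-IV.I, and Cacnb3 had the lowest log2 fold change among them. Cacnb3 (Entrez 12297, chromosome 15, 98628436 to 98644536), a calcium channel subunit that marks migratory dendritic cells, had an FPKM of 0.878 and 1.56 in P-IV.I and of 8.80 and 16.9 in PcDC2, at -2.60 ± 0.31 (adjusted p = 0.0114). It was at or under 0.0229 in every SPM and P-IV.II library and at 5.13 in PcDC1. Without P-IV.I replicate 1, P-IV.I replicate 2 or PcDC2 replicate 2 it did not pass, at adjusted p = 0.0679, 0.0689 and 0.0546. Of 42 tested genes of the migratory and mature dendritic cell list 2 were lower (4.76%, against 0.133% over all genes), Cacnb3 and Apol7c, and none was higher. Apol7c reached an FPKM of 1 in the PcDC2 libraries only, so it passed the filter through the group where it is high. In 28 members (66.7%, against 15.5% of all tested genes) both PcDC2 libraries lay above both P-IV.I libraries, and the median was -0.71. With a library left out 0 to 3 members were lower.

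Other members of that list had the same order of libraries without passing. Fscn1, which bundles actin in dendrites, had an FPKM of 2.37 and 9.59 in P-IV.I and of 43.6 and 25.4 in PcDC2, at -2.52 ± 0.50 (adjusted p = 0.0847). Ccr7 had 54.9 and 67.1 against 120 and 417, at -1.86 ± 0.72 (adjusted p = 0.594), and PcDC2 replicate 2 stood well above the other libraries. Il4i1, an amino acid oxidase, had 17.0 and 8.72 against 42.1 and 48.5, at -1.80 ± 0.39 (adjusted p = 0.109). In the NF-kB pathway none of 20 tested genes passed by limma (0 higher and 4 lower at an unadjusted p under 0.05), the median was -0.45, and in 12 of them, against 15.5% of all tested genes, both PcDC2 libraries lay above both P-IV.I libraries and in 0 the reverse (against 19.0%). Nfkb1 had 86.8 and 92.2 against 174 and 149, at -0.84 ± 0.22 (adjusted p = 0.211). The costimulatory ligand Cd80 had 11.0 and 11.2 in P-IV.I and 11.6 and 20.3 in PcDC2, at -0.44 ± 0.36, so PcDC2 replicate 1 was close to both P-IV.I libraries. None of 17 tested costimulatory and checkpoint genes passed, with 1 higher and 2 lower at an unadjusted p under 0.05.

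Antigen presentation genes did not pass in either direction. None of 18 tested MHC class II pathway genes passed by limma (0 higher and 5 lower at an unadjusted p under 0.05), the median was -0.33, and in 10 (55.6%, against 15.5% of all tested genes) both PcDC2 libraries lay higher. H2-Oa and H2-Ob, the chains of the peptide-loading regulator H2-O, had an FPKM of 166 and 111 against 347 and 368, and of 111 and 112 against 195 and 208. Their log2 differences were -1.39 ± 0.32 (adjusted p = 0.135) and -0.84 ± 0.21 (adjusted p = 0.175). Cd74, the invariant chain, had 43669 and 45452 in P-IV.I and 56910 and 47320 in PcDC2, at -0.22 ± 0.42. None of 21 MHC class I pathway genes passed, with a median of -0.14 and 0 at an unadjusted p under 0.05. The conventional dendritic cell core list had 0 of 22 passing (1 higher and 7 lower at an unadjusted p under 0.05), a median of -0.51, and 16 members (72.7%, against the same 15.5%) with both PcDC2 libraries higher.

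The lower genes also included transcripts known from lymphoid and plasmacytoid cells. Cd72 (Entrez 12517, chromosome 4, 43447724 to 43455102), a coreceptor of B cells, had an FPKM of 21.1 and 20.9 in P-IV.I and of 70.8 and 62.5 in PcDC2 without overlap, at -1.62 ± 0.27 (adjusted p = 0.0473). Siglech, a lectin of plasmacytoid dendritic cells, had 0.172 and 0.130 against 2.03 and 1.65, at -1.30 ± 0.18 (adjusted p = 0.0198). Siglech was the only one of 13 tested plasmacytoid genes that passed (7.69%, against 0.133% over all genes). It reached an FPKM of 1 in the PcDC2 libraries only. Tcf4, the master factor of that lineage, had 13.6 and 12.0 against 20.8 and 24.0 and did not pass (adjusted p = 0.318). The other plasmacytoid markers chosen did not follow this order. Ccr9 had 1.08 and 1.28 in P-IV.I against 1.05 and 0.848 in PcDC2, and Ly6d 4.73 and 4.01 against 4.92 and 2.12. Xkrx, a member of the XK protein family, was at -1.87 ± 0.22 and Adam23, a disintegrin-like membrane protein, at -1.66 ± 0.23. Cd72, Siglech, Xkrx and Adam23 were each lost when any one of the 4 libraries was left out, with adjusted p of 0.0501 to 0.301.

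In the same fit 13 genes were higher in PcDC2 than in each of P-IV.I, P-IV.II and SPM. Against these groups 0.133%, 13.2% and 11.2% of tested genes were higher in PcDC2. The 13 included Cacnb3, Cd72, Siglech, Xkrx, Adam23, Ppp1r14a, Fxyd7, Apol7c and Vangl2. Siglech, Fxyd7, Apol7c and some genes not named here reached an FPKM of 1 in the PcDC2 libraries only. They passed the filter through the group where they are high, so their place among the 13 is partly set by the filter. Of these 13 genes at most 2 met all 3 conditions when a library was left out, with 2 left after dropping replicate 1 of either P-IV.I or PcDC2 and 0 after dropping replicate 2 of either. Against P-IV.I, Vangl2 was lost in each of these fits (adjusted p = 0.115 to 0.238), and Ppp1r14a, Fxyd7 and Apol7c each passed in 1 of the 4. Of the 14 lower genes 11 had means under 1 FPKM in both SPM and P-IV.II. The share over all tested genes was not computed, and some of the 11 passed the filter only through PcDC2. The count is thus no trait of the lower genes. T cell transcripts had the same order of libraries, at low levels. Cd3e had an FPKM of 3.15 and 2.16 in P-IV.I and of 6.53 and 6.72 in PcDC2, and in 7 of 8 tested T cell genes (87.5%, against 15.5% of all tested genes) both PcDC2 libraries lay higher, with a median of -1.03 and none passing (1 higher and 7 lower at an unadjusted p under 0.05). The summed B cell list of 12 genes was 0.0183% and 0.0106% of all FPKM for P-IV.I against 0.0176% and 0.0116% for PcDC2. The sum leaned on Spib, at 49.5 and 8.64 FPKM in P-IV.I and 29.5 and 21.8 in PcDC2. Of 9 tested B cell genes both P-IV.I libraries lay higher in 2 (22.2%, against 19.0%). Both PcDC2 libraries lay higher in 1 (11.1%, against 15.5%), Cd22, at 4.55 and 6.88 in P-IV.I against 16.2 and 15.5. The summed T cell list of 11 genes was 0.00830% and 0.00755% of the FPKM total in P-IV.I and 0.00777% and 0.0112% in PcDC2, and no member was at 0 in these libraries. Much of the P-IV.I sum came from Cd2, an adhesion receptor that ran the other way, at 26.3 and 21.5 FPKM in P-IV.I and 8.68 and 11.6 in PcDC2, with 103 to 207 in the macrophage libraries. Without Cd2 the other 10 genes summed to 12.9 and 11.7 FPKM in P-IV.I and 27.5 and 41.0 in PcDC2, a sum added after the values were seen. The part of lymphocytes in the lower genes was not tested.

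Several other programmes did not pass in either direction. No member was called among 20 cholesterol synthesis, 28 cell cycle, 17 glycolysis, 28 interferon-stimulated or 24 immediate early and stress response genes tested by limma. The fit shared its spread over all replicated groups. The summed immediate early list was 5657 and 1321 FPKM in SPM and 14469.5 and 6072 in P-IV.II. It was 17233 and 18389 in P-IV.I and 19753 and 14729 in PcDC2. The p-values of this list thus also rest on the spread within the macrophage groups. At an unadjusted p under 0.05 there were 2 higher cholesterol genes, 1 higher and 1 lower cell cycle gene, 4 higher glycolysis genes, 1 higher interferon-stimulated gene and 0 immediate early genes. In the cell cycle list both P-IV.I libraries lay higher in 13 of 28 members (46.4%, against 19.0% of all tested genes) with a median of 0.49, and Mki67, a proliferation marker, had 1.65 and 1.82 against 1.43 and 1.72. In the cholesterol list they lay higher in 10 of 20 members (50.0%, against the same 19.0%), also with a median of 0.49. In the glycolysis list they lay higher in 10 of 17 members (58.8%, against the same 19.0%), with a median of 0.45, and the reverse held in 0. The lysosome list had none of 24 passing by limma (5 higher and 1 lower at an unadjusted p under 0.05). Both P-IV.I libraries lay higher in 13 of its members (54.2%, against 19.0%) and both PcDC2 libraries in 4 (16.7%, against 15.5%). Ctsd, a lysosomal protease, had 128 and 239 in P-IV.I and 47.3 and 56.2 in PcDC2, at 1.74 ± 0.31 (adjusted p = 0.0618).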

How the data were processed

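The table deposited by the authors holds FPKM values for 24532 genes in 9 libraries, called normalized in the labels, with no step beyond FPKM stated. Libraries were prepared with the SMARTer low-input chemistry and read on a NovaSeq, per the labels' protocols. Tools named in the submitters' processing notes are HISAT2 2.1.0, StringTie 1.3.4d, bcl2fastq 1.8.4 and Cufflinks (version not given in the sources used here), with mm10 as build. Strand use is not given, so overlapping and antisense genes cannot be told apart. Whole reads were not recoverable (among 350 low genes, 4.57% had the commonest ratio between libraries, at a tolerance of 1%), so the depth is unknown.

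Values were transformed as log2(FPKM + 1), which understates the change of low genes. Means of the 5 groups were fitted over all 9 libraries in R 4.3.3 with limma 3.58.1 (lmFit, contrasts.fit, eBayes with a variance trend), with 4 residual degrees of freedom and a prior of 4.02. P-values are two-sided and Benjamini-Hochberg adjusted over 10526 genes within each comparison. On simulated data of this comparison over 10526 genes, 42 of 100 genes with a log2 change of 1, 100 of 100 with a change of 2 and 4 of 10326 unchanged genes were called. Changes were placed only in genes of higher level. The simulated libraries were independent, and genes of the same level had the same spread, so these shares need not hold for the measured genes. Axl, Fscn1 and Apoe had measured log2 changes larger than 2 in size and did not pass.

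The members and gene lists were chosen with earlier results of these data known. Named genes are those of the sort gate, the markers Csf1r, Fcrls, Tgfbi, Lpl and Cacnb3, per list up to 4 called members with the largest change or up to 2 abundant ones where none passed, the 15 highest and 15 lowest called genes that had no overlap and averaged at least 10 FPKM in the higher group, and up to 10 genes highest in P-IV.I or in PcDC2 among the replicated groups. Cell type markers and other list members are named besides these, the latter after their values were seen, and predicted genes are not named. A few genes that the rule takes are not reported here. Coordinates and promoters are from RefSeq for GRCm38.p6.

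The labels number the libraries 1 and 2 in each group. Deviations of same-numbered P-IV.I and PcDC2 libraries correlated at -0.284 across genes. The other 5 pairs of groups gave 0.037 to 0.711, and P-IV.I stood at 0.336 to P-IV.II and at 0.548 to SPM. The correlations were not all above 0.1 and the labels do not say what the numbers stand for, so they were not taken as pairs. The alternatives tried are given in the closing section.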

Additional observations from a re-analysis of the deposited data

How the results depend on the processing

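No called gene passed in the opposite direction under any of the 17 alternatives, but the counts moved. The main counts were 63 higher and 14 lower genes. A pseudocount of 0.1 gave 98 and 6, and one of 5 gave 36 and 23. Asking for a value above 0 in 2 libraries gave 45 and 38, and asking for FPKM of at least 5 gave 62 and 7. Without a variance trend there were 66 and 9, and with limma's robust empirical Bayes 60 and 14. Library weights gave 96 and 30, in all 126, and a fit on the 4 libraries compared gave 33 and 2, in all 35. With limma's treat at a log2 fold change of 1 there were 18 and 0, in all 18. Median-ratio rescaling gave 52 and 13 and quantile normalization 56 and 12. Leaving out 1 library gave 15 to 45 higher, 0 to 5 lower and 15 to 47 in all, with the lone library of its group assumed to vary like the others. The cause of these shifts was not tested.

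A replicate block gave 115 higher and 28 lower genes, 143 in all, and kept all 77 of the main calls. Same-numbered P-IV.I and PcDC2 libraries did not deviate together, while those of P-IV.I and P-IV.II (0.336), P-IV.I and SPM (0.548) and SPM and P-IV.II (0.711) did. With the block, P-IV.I against P-IV.II gave 1615 genes in place of 1012 and P-IV.I against SPM 1653 in place of 1157. P-IV.II against PcDC2 gave 3056 in place of 2183. Treml4 and Ttc39a were again the genes highest in P-IV.I with the block, and 26 genes in place of 13 were highest in PcDC2. The fits that left out a library did not keep this pair, as given above. A block with the numbers crossed, chosen after seeing the data, gave 142 and 48, in all 190.

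There were 2 libraries a group and no counts, so the read numbers behind low FPKM values are unknown. The 95% interval of Flt3, at -1.23 to 0.22, shows how wide a difference the test leaves unresolved. All values are relative within a library.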

Other observations

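Chemokine genes and the single PcDC1 library hold values not described above. None of 19 tested chemokine genes passed between P-IV.I and PcDC2 by limma (1 higher and 2 lower at an unadjusted p under 0.05). Ccl6, a myeloid chemokine, had an FPKM of 802 and 601 in P-IV.I and of 226 and 305 in PcDC2, at 1.40 ± 0.32 on the log2 scale (limma adjusted p = 0.130). Ccl5, which attracts T cells, had 6.31 and 2.81 against 16.8 and 34.5, at -2.25 ± 0.47 (adjusted p = 0.0974). Of the chemokine receptors none of 14 tested passed (4 higher and 3 lower at an unadjusted p under 0.05), and Ccr1 had 28.6 and 33.6 in P-IV.I and 9.47 and 13.9 in PcDC2, at 1.36 ± 0.25 (adjusted p = 0.0671).

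Of the 63 genes with higher levels in P-IV.I than PcDC2, 23 were above the PcDC2 mean in the PcDC1 library and 16 were listed at 0 there. The shares over all tested genes were not computed, so these counts are no trait of the 63 genes. PcDC1 had 12911 of the 24532 genes at 0, against 11060 and 10835 in P-IV.I and 10699 and 11303 in PcDC2. Cd81 had an FPKM of 842 in PcDC1 against 134 and 136 in P-IV.I and 16.0 and 13.1 in PcDC2. Cd36 had 136 in PcDC1, Tgfbi 44.1 and Lyz2 2703, while Lpl had 0.0699 and Csf1r was listed at 0. PcDC1 has 1 library, so these values have no replicate check.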
